A study of Mus musculus with 8 samples.

Results

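The mitochondrial genome of the mouse is annotated with 37 genes, and their RNA was followed through gonads with and without the histone demethylase gene Kdm6b at embryonic day 11.5. The genes were taken as all those whose symbol starts with mt-, which are 37 of the 48440 genes in the deposited tables: 13 protein genes, 2 ribosomal RNA genes and 22 transfer RNA genes. Polyadenylated RNA was sequenced from whole gonads of XY Kdm6b-null, XY wild type, XX Kdm6b-null and XX wild type embryos. Each of the 4 groups had 2 libraries, each library pooled 2 pairs of gonads, and no treatment was given. The labels state the genotype only as null or WT, and give no strain, no deletion map and no litter, so p-values measure the spread between libraries. They name pre-Sertoli and pre-granulosa cells as cell types but describe no sorting.

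The mitochondrial genome is a small circle that is copied into long transcripts from both of its strands. In these transcripts tRNAs lie between most of the mRNAs and rRNAs, and cutting the tRNAs out releases the other RNAs. The proteins it encodes are core subunits of the respiratory chain complexes I, III and IV and of the ATP synthase, complex V. All other subunits, the mitochondrial ribosomal proteins and the machinery for mitochondrial transcription are encoded in the nucleus.

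The libraries held 19107103 to 19828638 counts on genes. Kdm6b itself stood at 1238 and 1037 normalized counts in the XY null libraries, against 3399 and 3181 in the XY wild type ones. In XX null libraries it stood at 1249 and 1125, against 2218 and 2796 in XX wild type. Gata4, Nr5a1, Wt1, Lhx9 and Emx2, transcription factor genes of the early gonad, were detected in all 8 libraries, the lowest value being 313 normalized counts for Nr5a1. The XX wild type libraries were the pair least alike, correlating at 0.965, where pairs of the remaining groups reached 0.980 to 0.985. These correlations were taken over log2 values of genes averaging at least 10 normalized counts. Genes of liver and yolk sac summed to 71.7 and 86.9 normalized counts in XX null, against 14627 in XX wild type replicate 1 and 397 in replicate 2, so the main XX shares and counts of calls are also given without each of its libraries. A normalized count is a read count divided by a size factor of its library. XX and XY libraries were normalized in separate tables, which limits any level set across the sexes.

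The counts assigned per kilobase divided the 13 protein genes into a high and a low group. Sequence shared with nuclear copies, described below, limits reading these counts as amounts of RNA. Averaged over the 8 libraries, 7 genes lay between 21495 normalized counts per kilobase for mt-Nd4 and 100504 for mt-Co1. The other 6 lay between 15.2 for mt-Atp8 and 80.0 for mt-Nd3. The lowest gene of the high group was thus 269-fold above the highest of the low group. The low genes mt-Co2, mt-Atp8, mt-Atp6, mt-Co3, mt-Nd3 and mt-Nd4l follow each other along the genome between mt-Co1 and mt-Nd4, with only tRNA genes between them.

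**Figure D1:**
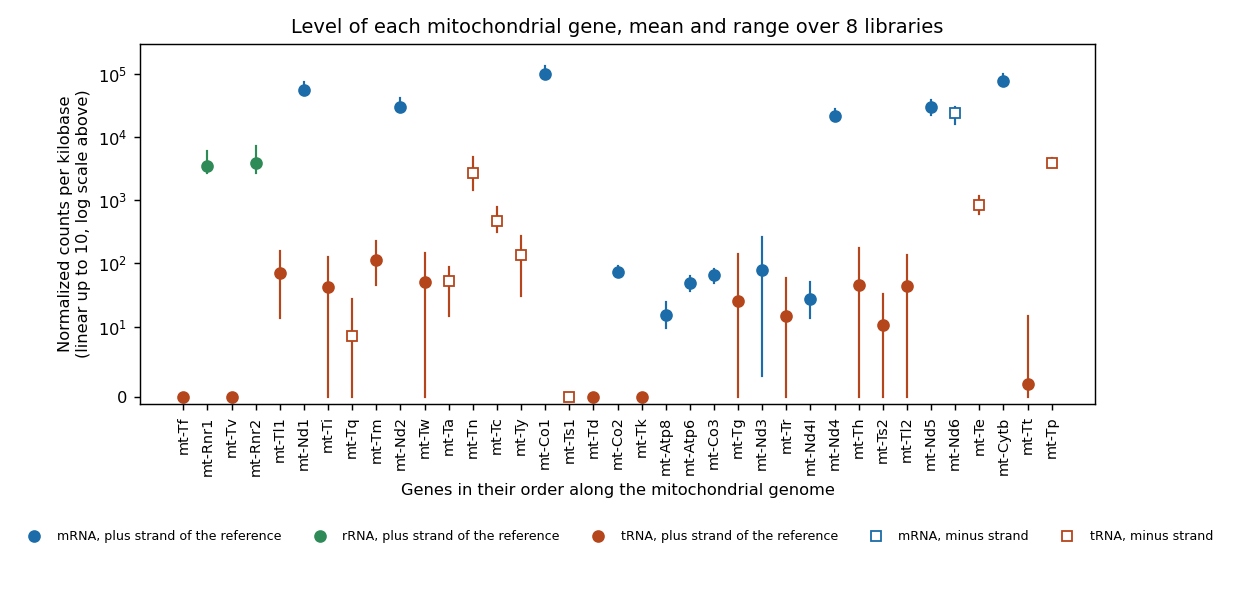
Level of each of the 37 mitochondrial genes in normalized counts per kilobase (linear up to 10, log scale above), in their order along the genome; points are means over 8 libraries and lines run from the lowest to the highest library. The 6 protein genes from mt-Co2 to mt-Nd4l lie between 15.2 and 80.0, whereas the other 7 protein genes lie at or above 21495 and the rRNA genes at 3488 and 3897.

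mt-Co1 (chrM:5328-6872 on GRCm38) encodes the catalytic core of complex IV. It had 135195 and 149245 normalized counts in XY null gonads, against 160824 and 136113 in XY wild type. It had 136659.9 and 149445 in XX null gonads, against 207853 and 166892 in XX wild type. On its own it made up 33.7 to 37.5% of all mitochondrial counts in a library. The groups overlapped in XY, and both XX null libraries lay below both XX wild type libraries.

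mt-Cytb (chrM:14145-15288) encodes cytochrome b, the mitochondrial subunit of complex III. It had 79383 and 89331 normalized counts in XY null, against 85357 and 77429 in XY wild type. It had 83408 and 83735 in XX null, against 114460.2 and 103095 in XX wild type. The pattern was that of mt-Co1, overlapping in XY and lower in the XX null pair.

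The remaining genes of the high group encode subunits of complex I, the entry point of electrons from NADH. mt-Nd1 (chrM:2751-3707) had 49647 and 48622 normalized counts in XY null, against 51872 and 44995 in XY wild type, while XX null had 44650.1 and 46172, against 71821 and 64566 in XX wild type. mt-Nd2 (chrM:3914-4951) had 28177 and 29184 in XY null, against 28353 and 27701 in XY wild type, while XX null had 26475 and 27183, against 42996 and 37796 in XX wild type. Both genes overlapped between genotypes in XY and were lower in both XX null libraries than in either XX wild type library. mt-Nd4 (chrM:10167-11544) had 26795 and 29625 in XY null, against 27164 and 26168 in XY wild type, while XX null had 28499 and 26476, against 38421 and 33817 in XX wild type. mt-Nd5 (chrM:11742-13565) had 56201 and 55263 in XY null, against 54649 and 41403 in XY wild type, while XX null had 53483 and 53761, against 70406 and 61568 in XX wild type. For mt-Nd5 the XY null libraries lay just above the XY wild type pair, of which replicate 2 was low.

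mt-Nd6 (chrM:13552-14070) differs from the other protein genes in its strand. It and 8 tRNA genes are annotated on the minus strand of the reference and are called light-strand genes here, after the promoter that transcribes them; the other 28 are called heavy-strand genes. mt-Nd6 had 15231 and 12464 normalized counts in XY null, against 10551 and 8386 in XY wild type. It had 11435 and 11177 in XX null, against 15008 and 15701 in XX wild type. The groups did not overlap in either sex, with the null above wild type in XY and below it in XX. The last 14 bases of mt-Nd5 and mt-Nd6 overlap on opposite strands. The library kit marks the strand, but the sources used here do not say whether reads were counted by strand, so reads of the opposite strand over mt-Nd6 cannot be told apart from its own.

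The rRNA genes are counted here in RNA selected by poly(A) tails. mt-Rnr1 (chrM:70-1024), the RNA of the small mitochondrial ribosomal subunit, had 3003 and 3100.3 normalized counts in XY null, against 3032 and 2769 in XY wild type, while XX null had 2615 and 2581, against 5767 and 3781 in XX wild type. mt-Rnr2 (chrM:1094-2675), the RNA of the large subunit, had 5447 and 5206 in XY null, against 6039 and 5102 in XY wild type, while XX null had 4571 and 4281, against 11335 and 7337 in XX wild type. Per kilobase both rRNAs were between the groups of protein genes, at 3488 for mt-Rnr1 and 3897 for mt-Rnr2. Within XX wild type, replicate 1 had clearly more of both rRNAs than replicate 2.

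Of the 6 low protein genes 5 have close copies annotated in the nuclear genome, where fragments of mitochondrial DNA have been inserted. In the GENCODE M21 annotation of GRCm38, 7 copies named as predicted genes lie side by side at chr1:24611535-24616197 and 3 more at chr2:22587291-22590533. On chromosome 1, the copies of mt-Co2 (Gm28661), mt-Atp6 (Gm10925), mt-Co3 (Gm28437), mt-Nd4l (Gm10222) and the first 876 bases of mt-Nd4 (Gm28439) have 0 substitutions over the aligned bases. The copy of mt-Nd3 (Gm28438) has 1 in 345 bases, and that of the 3′ part of mt-Co1 (Gm29216) has 1 in 483 bases. The copies on chromosome 2 are more diverged, at 96.7% identity for Gm13339 with mt-Nd2 and 97.6% each for Gm13340 with mt-Co1 and Gm13341 with mt-Co2.

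The share of each gene that is found unchanged in another annotated transcript was measured in windows of 100 bases, the length of the reads. It was 99.5% for mt-Co2 and mt-Atp6, 99.9% for mt-Co3, 97.6% for mt-Nd3 and 98.5% for mt-Nd4l. It was 60.8% for mt-Nd4, 30.8% for mt-Co1, 3.19% for mt-Nd2 and 0 for mt-Nd1, mt-Nd5, mt-Nd6, mt-Cytb and both rRNA genes. Every protein gene with a share above 97% was thus in the low group. The exception in that group was mt-Atp8, with 0 of 105 windows shared. No copy of mt-Atp8 is annotated as a transcript, but it starts in the 230 bases between mt-Co2 and mt-Atp6 and runs 43 bases into mt-Atp6. The copies of these neighbours on chromosome 1 are 233 bases apart. The sources used here do not say how reads that match several places were counted, and the part this plays in the levels was not tested.

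**Figure D2:**
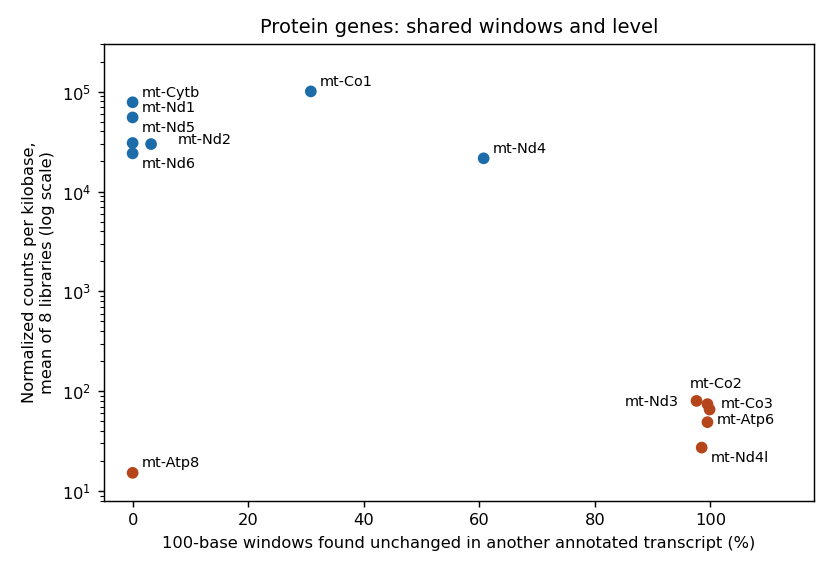
Each of the 13 protein genes by the percentage of its 100-base windows found unchanged in another annotated transcript and by its mean level in normalized counts per kilobase (log scale, 8 libraries). The 5 genes with more than 97% shared windows and mt-Atp8 (red) lie at or below 80.0, and the 7 others (blue) at or above 21495.

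Values of the low genes were small, and their counting error is correspondingly large. mt-Co2, the electron-accepting subunit of complex IV, had 42.9 and 48.4 normalized counts in XY null, against 46.5 and 45.9 in XY wild type, while XX null had 48.8 and 61.6, against 63.1 and 49.6 in XX wild type. mt-Co3, another core subunit of complex IV, had 58.5 and 57.6 in XY null, against 48.5 and 41.9 in XY wild type, while XX null had 38.9 and 42.4, against 65.0 and 58.7 in XX wild type. mt-Co2 overlapped between genotypes in both sexes, whereas mt-Co3 was separated in opposite directions. mt-Atp6, a membrane subunit of the ATP synthase, had 32.2 and 35.0 in XY null, against 30.7 and 30.9 in XY wild type, while XX null had 24.9 and 33.3, against 43.7 and 36.4 in XX wild type. mt-Atp8, its small partner subunit, had 2.93 and 2.06 in XY null, against 2.97 and 2.99 in XY wild type, while XX null had 1.99 and 2.02, against 4.85 and 5.06 in XX wild type. A difference in mt-Atp8 was not detectable at this depth, where 3 counts are worth 2.91 to 3.09 normalized counts. mt-Nd4l, a small complex I subunit, had 10.7 and 6.18 in XY null, against 9.89 and 7.98 in XY wild type, while XX null had 5.98 and 4.04, against 4.85 and 15.2 in XX wild type. Like mt-Atp8, it had a mean under the limit of 10 normalized counts that was required for testing in either sex.

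mt-Nd3 (chrM:9459-9806), which encodes another subunit of complex I, varied widely between libraries. It had 91.7 and 27.8 normalized counts in XY null, against 2.97 and 3.99 in XY wild type, while XX null had 29.9 and 1.01, against 5.82 and 59.7 in XX wild type. Its nuclear copy Gm28438 (chr1:24612775-24613119) had 3.90 and 8.23 in XY null, against 58.4 and 69.8 in XY wild type, while XX null had 1.99 and 39.4, against 110 and 3.03 in XX wild type. In each library that was high for mt-Nd3 the copy was low, and the reverse. The start of both sequences is shown because they are identical over the 345 aligned bases but for T3C, where positions are counted from the first base of mt-Nd3 and the second letter is that of the copy. The first 60 bases of each, 5′ to 3′ as given by GENCODE M21 on GRCm38, are, with the differing base in capitals:
mt-Nd3 (chrM:9459-9518, plus strand): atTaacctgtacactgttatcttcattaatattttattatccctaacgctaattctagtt
Gm28438 (chr1:24613060-24613119, minus strand): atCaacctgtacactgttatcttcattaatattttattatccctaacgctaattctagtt

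The share of mt-Nd3 in the counts of the pair was either very low or high in every library. It was 95.9% of 98 counts and 77.1% of 35 counts in XY null (exact Clopper-Pearson 95% intervals 89.9 to 98.9% and 59.9 to 89.6%), against 4.84% of 62 and 5.41% of 74 in XY wild type (1.01 to 13.5% and 1.49 to 13.3%). It was 93.8% of 32 and 2.50% of 40 in XX null (79.2 to 99.2% and 0.0633 to 13.2%), against 5.04% of 119 and 95.2% of 62 in XX wild type (1.87 to 10.7% and 86.5 to 99.0%). In XY the high shares were those of the null libraries, and in XX each genotype had a high and a low library. The sum of the pair was 95.6 and 36 normalized counts in XY null, against 61.3 and 73.8 in XY wild type, while XX null had 31.9 and 40.4, against 115 and 62.7 in XX wild type. The intervals cover counting error only.

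**Figure D3:**
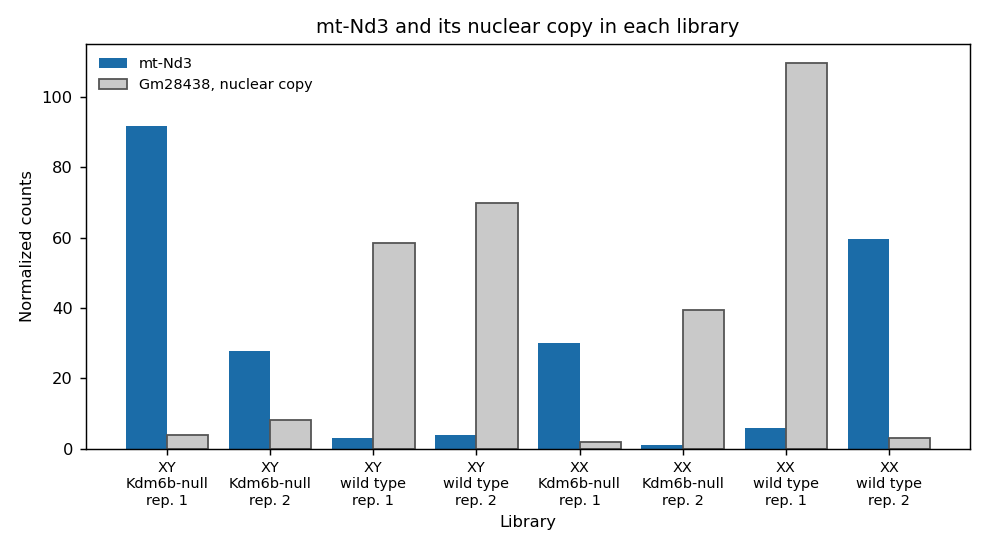
Normalized counts of mt-Nd3 (blue) and of its nuclear copy Gm28438 (grey) in each of the 8 libraries. mt-Nd3 exceeds the copy in both XY null libraries, XX null replicate 1 and XX wild type replicate 2, and the copy exceeds mt-Nd3 in the other 4.

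The tRNA genes on either side of mt-Nd3 had few counts. mt-Tg, just before it, had 10 and 1 in XY null and 0 in both XY wild type libraries, and 1 and 0 in XX null against 0 and 2 in XX wild type. mt-Tr, just behind it, had 3 and 1 in XY null and 0 in both XY wild type libraries, and 0 in both XX null libraries against 0 and 4 in XX wild type. In the authors' deposited table, mt-Nd3 had a DESeq2 log2 fold change of 4.10 (adjusted p = 0.0024) in XY and Gm28438 one of -3.41 (adjusted p = 5.1e-04), so that both were called, in opposite directions. By limma on log2(normalized count + 1) in XY, mt-Nd3 had 3.54 (SE 0.62, adjusted p = 0.45; 2.20 with a pseudocount of 10) and Gm28438 -3.27 (SE 0.43, adjusted p = 0.22). When the counts of both were summed, a step chosen after seeing the data, the XY log2 fold change was -0.19.

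Of the 22 tRNA genes, 5 had a mean of at least 10 normalized counts in either sex. All 5 are among the 8 light-strand tRNA genes, and 0 of the 14 heavy-strand tRNA genes passed. The highest value of a heavy-strand tRNA in any library was 15.5 normalized counts, against 349 for a light-strand tRNA. mt-Tf, mt-Tv, mt-Td and mt-Tk on the heavy strand and mt-Ts1 on the light strand were at 0 in all 8 libraries, which allows up to 3 counts in each. The tRNAs are shorter than the reads, at 59 to 75 bases, so a full-length read over a tRNA reaches beyond it. As for mt-Nd6, whether reads were counted by strand is not stated. The contrast between the strands therefore cannot be read as a difference in tRNA amount. The 5 that passed are shown as given by GENCODE M21 on GRCm38, 5′ to 3′ on the minus strand, with the anticodon in capitals:
mt-Tn for asparagine (chrM:5089-5159): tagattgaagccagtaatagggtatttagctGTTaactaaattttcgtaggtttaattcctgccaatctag
mt-Tc for cysteine (chrM:5192-5257): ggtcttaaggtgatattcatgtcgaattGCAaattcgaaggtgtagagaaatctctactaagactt
mt-Ty for tyrosine (chrM:5260-5326): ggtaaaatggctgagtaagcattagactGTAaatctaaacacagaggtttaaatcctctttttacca
mt-Te for glutamate (chrM:14071-14139): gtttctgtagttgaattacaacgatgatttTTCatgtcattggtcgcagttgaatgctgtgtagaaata
mt-Tp for proline (chrM:15356-15422): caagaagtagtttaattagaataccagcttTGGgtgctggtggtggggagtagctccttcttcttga

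The first 3 of these come from a cluster between mt-Nd2 and mt-Co1, and mt-Te lies next to mt-Nd6. mt-Tn had 180.5 and 217 normalized counts in XY null, against 133 and 125 in XY wild type, while XX null had 222 and 185, against 349 and 104 in XX wild type. mt-Tp had 265 and 312 in XY null, against 230.5 and 223 in XY wild type, while XX null had 240.2 and 262, against 287 and 249.8 in XX wild type. Both were above wild type in both XY null libraries and overlapped in XX. mt-Te had 57.6 and 74.1 in XY null, against 50.5 and 51.8 in XY wild type, while XX null had 41.9 and 46.5, against 80.5 and 66.8 in XX wild type. mt-Tc had 25.4 and 44.3 in XY null, against 20.8 and 21.9 in XY wild type, while XX null had 34.9 and 27.3, against 51.4 and 22.3 in XX wild type. mt-Ty, which passed in XX only, had 14.9 and 11.1 in XX null, against 18.4 and 2.02 in XX wild type. For mt-Tn, mt-Tc and mt-Ty the XX wild type libraries enclosed the XX null pair, with replicate 1 high and replicate 2 low. The 17 other tRNA genes had means under 10 in both sexes and were not tested.

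All 37 genes together took 2.09 and 2.15% of the counts in XY null libraries, against 2.22 and 1.90% in XY wild type. In XX they took 1.99 and 2.02% in null libraries, against 3.12 and 2.55% in wild type. The Wilson 95% interval of a share was at most 0.0078 percentage points to either side, less than the differences between libraries. The XX null libraries were the lower pair, and the XY wild type libraries enclosed the XY null pair. Null minus wild type was 0.0582 percentage points in XY (2.12 ± 0.0397 against 2.06 ± 0.226, SD, n = 2 each; exact permutation p = 1, two-sided). It was -0.826 in XX (2.01 ± 0.0235 against 2.83 ± 0.407, SD, n = 2 each; exact permutation p = 0.333, the smallest that 2 against 2 libraries can give). Over both sexes it was -0.384 (exact permutation within sex, p = 0.222, where the smallest possible is 0.0556). Leaving out XX wild type replicate 1 made the XX difference -0.538, and leaving out its replicate 2 made it -1.11. Without XY wild type replicate 2 the XY difference was -0.101, and without replicate 1 it was 0.218. In gonads sequenced in bulk, fewer cells rich in mitochondria and less mitochondrial RNA per cell cannot be told apart.

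Markers of the cell types in the dissected tissue differed between the same libraries. The 9 erythroid markers summed to 122406 and 116124 normalized counts in XX null, against 188200 and 247752 in XX wild type, and 8 of 9 had a negative log2 fold change. In XY they summed to 70353 and 213904 in null, against 61343 and 104956 in wild type, and all 9 were positive. Globin genes took 0.605 and 0.562% of counts in XX null, against 1.03 and 1.25% in XX wild type. Of the liver and yolk sac genes, all 5 had negative log2 fold changes in XX. The 7 endothelial markers, all positive in XX, summed to 16516 and 16393 normalized counts in XX null, against 10839 and 12010 in XX wild type. The 7 macrophage markers, all positive in XY, summed to 1997 and 2190 in XY null, against 1418 and 1460 in XY wild type. The 5 genes of gonadal somatic cells, all negative in XY, summed to 8412 and 12852 in XY null, against 12697 and 14465 in XY wild type. In XX all 5 were positive, with sums of 9572 and 9535 in null, against 8495 and 6924 in wild type. The 6 mesonephros and duct markers, all positive in XX, summed to 1885 and 1785 in XX null, against 1577 and 975 in XX wild type. The 7 germ cell markers, all positive in XY, summed to 3443 and 2666 in XY null, against 1794 and 2845 in XY wild type. All 6 markers of neural crest and neurons were negative in both sexes, with medians of -0.15 in XY and -0.26 in XX. Several lists were mixed in the other sex. In XX, 6 of 7 macrophage and 4 of 7 germ cell markers were negative. In XY, 6 of 7 endothelial, 2 of 6 mesonephros and duct, and 2 of 3 liver and yolk sac genes tested were negative. Nr5a1 is counted in both the gonadal somatic and the adrenal cortex list, so their sums are not separate. Of the 6 adrenal cortex markers 4 were negative in XX, with sums of 992 and 1091 in null, against 2045 and 615 in wild type. In XY 1 of 4 tested was negative. None of the markers in these lists was at 0 in all libraries, and their part in the mitochondrial share was not tested. With the globin genes taken out of the total, the XX difference was -0.846.

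The makeup of the mitochondrial counts was measured as shares within them, which do not depend on the size factors. The rRNAs made up 2.11 and 1.96% of mitochondrial counts in XY null, against 2.12 and 2.12% in XY wild type, while XX null had 1.83 and 1.69%, against 2.95 and 2.24% in XX wild type. The null libraries lay below the wild type libraries of their sex in both sexes, by mean differences of 0.0819 percentage points in XY and 0.838 in XX. In XY the nearest libraries were null replicate 1 at 2.113% and wild type replicate 1 at 2.117%. A gap this small can be counting error, for which no interval was computed here, and the test over both sexes depends on this order. The difference over both sexes was -0.460 percentage points (exact permutation within sex, p = 0.0556, the smallest the design can give). Without XY null replicate 2 the XY difference was -0.0075, and without XY null replicate 1 it was -0.156. Without XX wild type replicate 1 the XX difference was -0.483 and that over both sexes -0.283. Counts on the light-strand genes made up 3.94 and 3.10% in XY null, against 2.57 and 2.38% in XY wild type. XX null had 3.06 and 2.89%, against 2.73 and 3.26% in XX wild type. As said for mt-Nd6, these counts may include reads of the opposite strand. Most of them were on mt-Nd6, with 3.81 and 2.95% in XY null, against 2.46 and 2.26% in XY wild type. The XY null libraries were the higher pair by 1.05 percentage points (exact permutation p = 0.333, the smallest possible), and the XX groups overlapped. That XY difference was 0.631 without XY null replicate 1 and ran up to 1.47 when another library was left out. The tRNAs made up 0.149 and 0.159% in XY null, against 0.107 and 0.124% in XY wild type, while XX null had 0.149 and 0.138%, against 0.145 and 0.0956% in XX wild type.

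**Figure D4:**
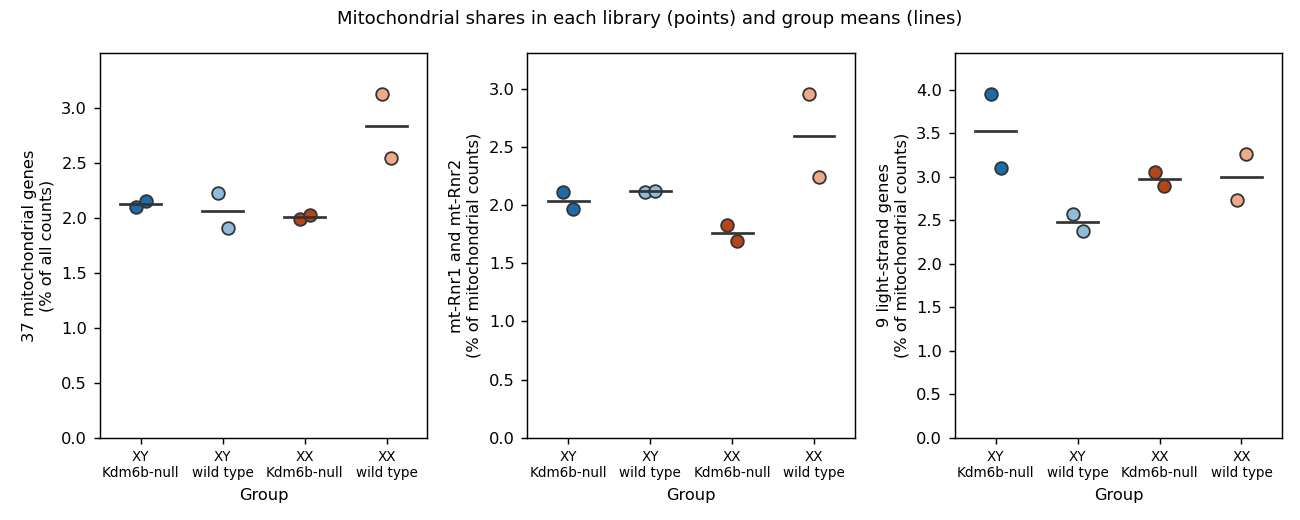
Mitochondrial genes as a percentage of all counts (left), rRNA as a percentage of mitochondrial counts (middle) and light-strand genes as a percentage of mitochondrial counts (right), by group; points are libraries and lines are means of 2. XX wild type is the highest group on the left and in the middle, at 2.83% and 2.60%, and XY null on the right, at 3.52%.

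In XX, limma called 0 of 17028 genes at an adjusted p under 0.05 (0% of those tested), and 2383 had an unadjusted p under 0.05 (14.0%). Of the 37 mitochondrial genes, 18 passed the filter on low values and were tested: 11 mRNAs, both rRNAs and 5 tRNAs. None was called, 6 had an unadjusted p under 0.05, and all 6 were lower in the null, where 4.65% of all genes tested were lower and 9.34% higher. In 12 of the 18 both null libraries lay below both wild type libraries, as in 22.5% of all genes tested, and in 0 both lay above, as in 27.0%. The median log2 fold change of the 18 was -0.42, against a value of 0.00 for all genes, and 16 were negative. Leaving out a wild type library, which treats the lone one as varying like the others, gave calls. Without XX wild type replicate 1, limma called 621 genes (3.69%), 4 of 17 mitochondrial ones tested among them, and without replicate 2 it called 3550 (20.9%), 7 of 19 among them.

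The rRNAs had the largest negative log2 fold changes of the mitochondrial genes with an unadjusted p under 0.05 in XX. mt-Rnr2 had a log2 fold change of -1.04 (SE 0.22, limma adjusted p = 0.26) and mt-Rnr1 one of -0.85 (SE 0.21, adjusted p = 0.26). Without XX wild type replicate 1 these were -0.73 for mt-Rnr2 and -0.54 for mt-Rnr1. mt-Nd2 had -0.59 (SE 0.17, limma adjusted p = 0.29), mt-Nd1 -0.58 (SE 0.20, adjusted p = 0.33), mt-Nd6 -0.44 (SE 0.12, adjusted p = 0.29) and mt-Te -0.72 (SE 0.25, adjusted p = 0.33). Of the other genes in the high group, mt-Co1 had -0.38 (SE 0.33), or -0.22 without XX wild type replicate 1. mt-Cytb had -0.38 (SE 0.25), mt-Nd4 -0.39 (SE 0.17) and mt-Nd5 -0.30 (SE 0.21). Among the low genes mt-Co3 had -0.59 (SE 0.25), mt-Atp6 -0.45 (SE 0.32), mt-Co2 -0.03 (SE 0.28) and mt-Nd3 -1.37 (SE 1.60). Among the tRNAs mt-Ty had 0.86 (SE 0.95), mt-Tn 0.09 (SE 0.56), mt-Tp -0.10 (SE 0.15) and mt-Tc -0.13 (SE 0.47).

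The authors' deposited table of DESeq2 results calls 407 of 14704 genes in XX (2.77%), 121 of them lower (0.823%) and 286 higher (1.95%). It gives an adjusted p for 16 of the mitochondrial genes and calls 5, all lower. In the authors' deposited table mt-Rnr2 had a log2 fold change of -1.08 (DESeq2 adjusted p = 6.2e-05) and mt-Rnr1 one of -0.88 (0.0024). mt-Nd1 had -0.59 (adjusted p = 3.1e-04), mt-Nd2 -0.59 (5.3e-04) and mt-Nd6 -0.44 (0.0092) in the authors' deposited table. These 5 are among the 6 with the small unadjusted limma p.

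In XY, limma called 0 of 16821 genes (0% of those tested), with 834 at an unadjusted p under 0.05 (4.96%). Of the mitochondrial genes 17 were tested, 11 mRNAs, both rRNAs and 4 tRNAs. None was called, and 3 had an unadjusted p under 0.05, all higher in the null, where 2.11% of all genes tested were higher and 2.85% lower. They were mt-Nd3, described above, mt-Nd6 with a log2 fold change of 0.55 (SE 0.15, limma adjusted p = 0.84) and mt-Tn with 0.62 (SE 0.17, adjusted p = 0.84). In 9 of the 17 both null libraries lay above both wild type libraries (16.6% of all genes tested), and in 0 both lay below (16.3%). The median was 0.12, and 14 were positive. mt-Nd3, counted in each of these, passed the filter only through its null libraries, at 91.7 and 27.8 normalized counts against 2.97 and 3.99 in wild type. With mt-Nd3 and Gm28438 summed, 2 mitochondrial genes had an unadjusted limma p under 0.05. The median was then 0.08, and 13 were positive.

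The heavy-strand genes of the high group showed little difference in XY. Their log2 fold changes ran from -0.06 for mt-Co1 (SE 0.21) to 0.23 for mt-Nd5 (SE 0.17), with 0.05 for mt-Cytb, 0.02 for mt-Nd1, 0.03 for mt-Nd2 and 0.08 for mt-Nd4. The rRNAs had 0.07 for mt-Rnr1 (SE 0.08) and -0.06 for mt-Rnr2 (SE 0.10). The 4 light-strand tRNAs tested were all positive, with 0.63 for mt-Tc (SE 0.37), 0.35 for mt-Te (SE 0.25) and 0.34 for mt-Tp (SE 0.14) beside mt-Tn. Of the low genes mt-Co3 had 0.36 (SE 0.24), mt-Atp6 0.12 (SE 0.28) and mt-Co2 -0.02 (SE 0.25). The authors' deposited table calls 72 of 17890 genes in XY (0.402%), 22 of them higher (0.123%) and 50 lower (0.279%). Of the 19 mitochondrial genes with an adjusted p in the authors' deposited table, 1 was called, mt-Nd3, and mt-Nd6 had an adjusted p of 0.070.

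**Figure D5:**
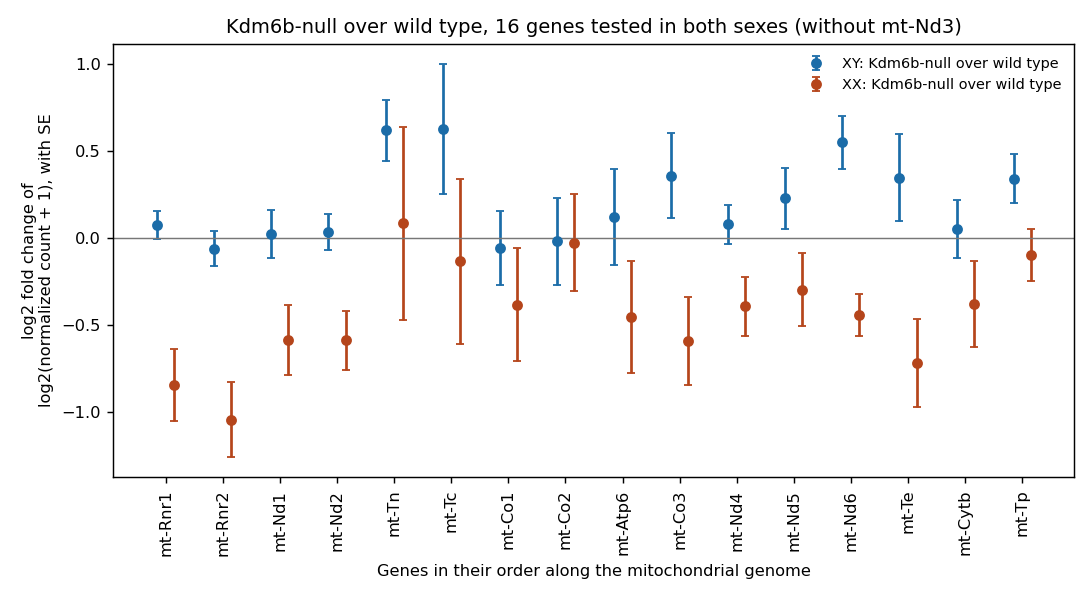
Log2 fold change of Kdm6b-null over wild type, with its standard error, for the 16 mitochondrial genes tested in both sexes other than mt-Nd3, from limma on log2(normalized count + 1), 2 libraries a group. In XX (red) the rRNAs are lowest, at -0.85 and -1.04, and in XY (blue) mt-Tc, mt-Tn and mt-Nd6 are highest, at 0.63, 0.62 and 0.55.

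The difference between the effects of the null in XY and in XX was tested directly on 16943 genes, as a difference of differences within each table. 0 genes were called by limma (0%), and 1425 had an unadjusted p under 0.05 (8.41%). Of the 17 mitochondrial genes tested none was called, and 9 had an unadjusted p under 0.05, all with the higher effect in XY, as did 2.70% of all genes, against 5.71% with the lower one. In 5 the null libraries lay above wild type in XY and below it in XX without overlap, as in 2.59% of all genes. All 17 were positive with a median of 0.61, against -0.02 for all genes. With mt-Nd3 and Gm28438 summed, 8 had an unadjusted limma p under 0.05 and all 17 were positive. mt-Nd6 differed by 0.99 on the log2 scale (SE 0.20, limma adjusted p = 0.57), mt-Rnr2 by 0.98 (SE 0.27), mt-Rnr1 by 0.92 (SE 0.25) and mt-Nd2 by 0.62 (SE 0.19). As a mean of both sexes, limma called 6 genes (0.0354%), 0 of them mitochondrial. Of 17 mitochondrial genes 4 had an unadjusted p under 0.05, all lower, as were 5.39% of all genes, with 9.05% higher and 14.4% in all. The smallest p among the mitochondrial genes was that of mt-Rnr2, with a mean log2 fold change of -0.55 (SE 0.13, limma adjusted p = 0.18). mt-Rnr1 had -0.39 (adjusted p = 0.25), and mt-Nd1 and mt-Nd2 had -0.28 each.

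The nuclear genes that work with the mitochondrial ones had medians nearer to 0 in XX. The 36 nuclear subunits of complex I had a median log2 fold change of -0.11, with 28 negative. Only 1 of the 36 had an unadjusted limma p under 0.05 and was lower, where 4.65% of all genes tested were lower and 9.34% higher. That gene was Ndufc2 (-0.35, SE 0.10). The medians were 0.02 for the 4 genes of complex II, which has no mitochondrial gene, -0.09 for the 9 of complex III, -0.12 for the 11 of complex IV and -0.13 for the 15 of complex V. Of the mitochondrial ribosomal protein genes, which bind the rRNAs, 76 were tested, with a median of -0.08 and 53 negative. Mrps10 had the smallest p of them, at -0.49 (SE 0.10, limma adjusted p = 0.26). limma called 0 genes of these lists in either sex.

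The 15 genes of mitochondrial transcription and DNA maintenance had an XX median of -0.13. Polrmt, the mitochondrial RNA polymerase, was at 0.33 (SE 0.11) in that list, with 769 and 831 normalized counts in XX null against 616 and 661 in XX wild type. The 32 genes of mitochondrial RNA processing had a median of -0.05, the 7 regulators of mitochondrial biogenesis 0.22 and the 13 stress response genes tested -0.10. Among the stress genes Hspe1, a chaperonin of the matrix, had -0.46 (SE 0.09, limma adjusted p = 0.26). In XY the medians of the respiratory chain lists lay between -0.04 and 0.02, those of RNA processing and transcription at -0.04 and -0.02, and that of the mitochondrial ribosomal proteins at -0.03. The XY gene with the smallest p among these lists was Asns, an asparagine synthetase induced by amino acid stress, at -0.72 (SE 0.11, limma adjusted p = 0.31).

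The nuclear copies themselves were all at low counts, with means of 5.20 to 43.7 normalized counts over the 8 libraries. Of the 10 copies 8 were tested in XX, and the log2 fold changes of all 8 were negative (median -0.65). Gm29216, the copy of the 3′ part of mt-Co1, had 20.9 and 27.3 normalized counts in XX null, against 55.3 and 47.5 in XX wild type (log2 fold change -1.07, SE 0.31, limma adjusted p = 0.29). In XY the median of the 8 was 0.02, with Gm28438 lowest. Reads of the copies and of the mitochondrial genes cannot be told apart over the shared windows, so these values are uncertain.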

How the data were processed

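RNA was enriched with oligo(dT), marked by strand with dUTP and sequenced as 100-base reads, per the labels' protocols. The build GRCm38 (mm10) and the tools STAR 2.7.11, cutadapt 4.9, featureCounts 2.0.8 and DESeq2 2.11.40.8 are named in the submitters' processing notes. The sources used here give no strand or multimapping setting. As deposited, the signal values are normalized counts: the authors divided counts by 1 size factor per library, XX and XY apart. The smallest step, 0.970 to 1.03, was read as 1 count for depths and intervals only. The authors' deposited tables also give log2 fold changes and p-values by DESeq2. The Wald score that the authors deposited beside them was not used.

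limma 3.58.1 (R 4.3.3) was run on log2(normalized count + 1), with a variance trend, genes averaging at least 10, and Benjamini-Hochberg adjustment at 0.05 over all genes tested; such fold changes understate the change of low genes. Shares were tested by exact two-sided permutation. On counts simulated with the same dispersion for every gene and library, 70.8% (XX) and 85.1% (XY) of genes changed by a log2 of 1 were called. The spread of the real libraries was not simulated, so these shares do not give the power of this design. Sequences came from GENCODE M21 and were compared in Biopython 1.88. Members and lists were chosen with earlier results of these data known. Every mitochondrial gene was accounted for, and up to 3 genes of a list were named by smallest p; nuclear copies were named where tested. Alternatives were pseudocount, filter, scaling, a replicate block, and leaving out each library. XX and XY shared no library.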

Additional observations from a re-analysis of the deposited data

Results flagged for a closer look

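For 5 mitochondrial genes, both XY null libraries lay above both XY wild type libraries while both XX null libraries lay below both XX wild type libraries, as in 2.59% of all genes tested. The XY effect minus the XX effect was 0.99 on the log2 scale for mt-Nd6 (SE 0.20), 1.07 for mt-Te (SE 0.34), 0.95 for mt-Co3 (SE 0.32), 0.58 for mt-Atp6 (SE 0.40) and 0.52 for mt-Nd5 (SE 0.27). For mt-Atp6 the XY groups were barely apart, at 32.2 and 35.0 normalized counts in null, against 30.7 and 30.9 in wild type. A gap this small can be counting error. By limma none passed the test of this difference over all genes (adjusted p = 0.57 for mt-Nd6, mt-Te and mt-Co3, 0.71 for mt-Atp6 and 0.62 for mt-Nd5). mt-Te and mt-Nd6 adjoin on the light strand, and mt-Atp6 and mt-Co3 share most windows with nuclear copies. mt-Nd5 overlaps mt-Nd6 by only 14 bases, on the opposite strand. The part of these positions in the differences was not tested.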

How the results depend on the processing

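The replicate numbers share no stated litter or batch, and deviations of same-numbered libraries correlated at 0.245 in XY and -0.0616 in XX. With a replicate block, limma called 23 genes in XY, 2 in XX, 0 for the mean of both sexes (6 without it) and 0 for the difference. With all 8 libraries in 1 fit, 10 genes were called in XX, and without a filter 1 for the mean of both sexes. Leaving out a library gave 0 to 2 calls in XY, 0 to 3550 in XX (621 without XX wild type replicate 1, 3550 without replicate 2), 0 to 1306 for the mean (1306 without XX wild type replicate 2) and 0 to 43 for the difference. The lone library was then assumed to vary like the others. When each XX library was left out in turn, the XX log2 fold change of mt-Rnr2 ran from -1.36 to -0.73. That of mt-Rnr1 ran from -1.15 to -0.54, of mt-Nd2 from -0.68 to -0.49, of mt-Nd6 from -0.47 to -0.41 and of mt-Nd1 from -0.66 to -0.51.

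As shares of mitochondrial counts, the median log2 fold change of the mitochondrial genes was 0.0080 in XX, 0.033 for the mean and 0.14 for the difference, and mt-Co1 and mt-Cytb had 0.043 and 0.046 in XX; by construction this removes a change common to all. Leaving out a library gave medians of -0.58 to -0.33 in XX, 0.05 to 0.18 in XY, -0.20 to -0.09 for the mean and 0.45 to 0.71 for the difference. Null minus wild type in the share of all counts ran from -0.101 to 0.218 percentage points in XY, from -1.11 to -0.538 in XX and from -0.528 to -0.240 over both. As percentage points of mitochondrial counts, the rRNA difference ran from -0.156 to -0.0075 in XY, from -1.19 to -0.483 in XX and from -0.637 to -0.283 over both, and the light-strand difference in XY from 0.631 to 1.47; the tRNA difference in XX ran from -0.0013 to 0.048 and the light-strand difference in XX from -0.288 to 0.244 (0.0615 without XX null replicate 2). The XY value of mt-Nd3 was -0.19 when summed with Gm28438; the cause of the other changes was not tested. Scaled to the library total, 1176 XX genes were lower and 1207 higher at an unadjusted p under 0.05, against 792 and 1591 as deposited.

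Low counts limit the 6 low protein genes and the tRNAs.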
